A study of Macaca mulatta with 16 samples.

Results

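The alveolar fibroblast maturation genes examined here are 10 genes of the fetal rhesus macaque lung: PDGFA and PDGFRA, a growth factor and its receptor; TCF21 and PLIN2, genes of the lipid-storing fibroblast; GPX3, FMO2, CP and FIBIN, genes placed with fibroblasts whose level was named as rising toward term; and NPNT and ITGA8, a matrix protein and its integrin receptor. They were picked by symbol, through the rhesus Ensembl gene identifiers of the deposited table, with earlier results of these animals known. The RNA came from whole lung, so the level of none of them can be assigned to fibroblasts alone. All 10 had a row among the 22515 genes of the table, and all 10 were among the 19199 genes expressed highly enough to be tested.

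In the developing lung, PDGF-A made by the epithelium signals to PDGF receptor alpha on fibroblasts, and this signal is needed for the myofibroblasts that lay down elastin in the growing septa. Neighboring fibroblasts store neutral lipid in droplets, carry the transcription factor TCF21 and support surfactant production by alveolar type 2 cells. Alveolar fibroblasts and the epithelium beside them share a basement membrane that holds nephronectin, the ligand of integrin alpha 8 beta 1.

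RNA sequencing of lung was available for 16 fetuses in 5 groups, each fetus a separate animal. Preterm controls (n = 4) and term controls (n = 2) were untreated and were delivered at 131 to 135 and at 156 to 157 days of gestation. LPS 16h animals (n = 4) received 1 mg of E. coli lipopolysaccharide (LPS), a bacterial product that starts inflammation, into the amniotic fluid at 129 to 130 days and were delivered 16 hours later, at 130 to 131 days. LPS 5d animals (n = 3) received the same dose at 126 to 129 days and were delivered 5 days later, at 131 to 134 days. LPS + Beta-Ac animals (n = 3) received that dose of LPS, with 0.125 mg/kg of betamethasone-acetate (Beta-Ac), a corticosteroid, injected into the mother's muscle, at 126 to 127 days, and were delivered 5 days later, at 131 to 132 days. LPS was given once, and Beta-Ac alone was not analysed here.

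The table held 20169363 to 28348816 counts per preterm control, and the LPS 5d, LPS + Beta-Ac and term libraries lay within that range. The LPS 16h libraries were deeper, at 30596371 to 48052891 counts, so that depth and this group cannot be told apart. Levels are counts per 1000000 (CPM) after TMM scaling, and a gene was called changed when limma gave an adjusted p under 0.05 with at least a 2-fold difference. When libraries were scaled by their totals alone, the median log2 fold change over all genes moved from -0.09 to -0.29 for LPS 16h against preterm controls, and from -0.04 to -0.22 for LPS 16h against LPS 5d.

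The 10 genes did not move as 1 group toward term. PLIN2, GPX3, FMO2, CP and FIBIN were higher in both term controls than in any preterm control, while PDGFA was lower in both and PDGFRA, TCF21, NPNT and ITGA8 overlapped. The first 5 were chosen with these levels known, so their rise does not bear on the name of the group. Over all genes tested, 11.2% lay above the preterm controls with no overlap and 15.2% below. Because genes were chosen for rising toward term in these animals, this comparison is a description and no test is given for it. After 16 hours of LPS, GPX3, CP and PLIN2 rose and TCF21 fell, which is 3 genes called higher and 1 called lower of 10, against 8.3% and 6.07% of all genes. That comparison shares the 4 preterm controls with those for which GPX3, CP and PLIN2 were chosen, and these controls were the lowest group for all 3 genes, so that neither the count called higher nor the p-values of these 3 are independent evidence. In that comparison 3 genes lay above the preterm controls with no overlap and 4 below, against 17% and 16.6% of all genes. The plot of levels by animal shows each gene in the 5 groups.

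**Figure D1:**
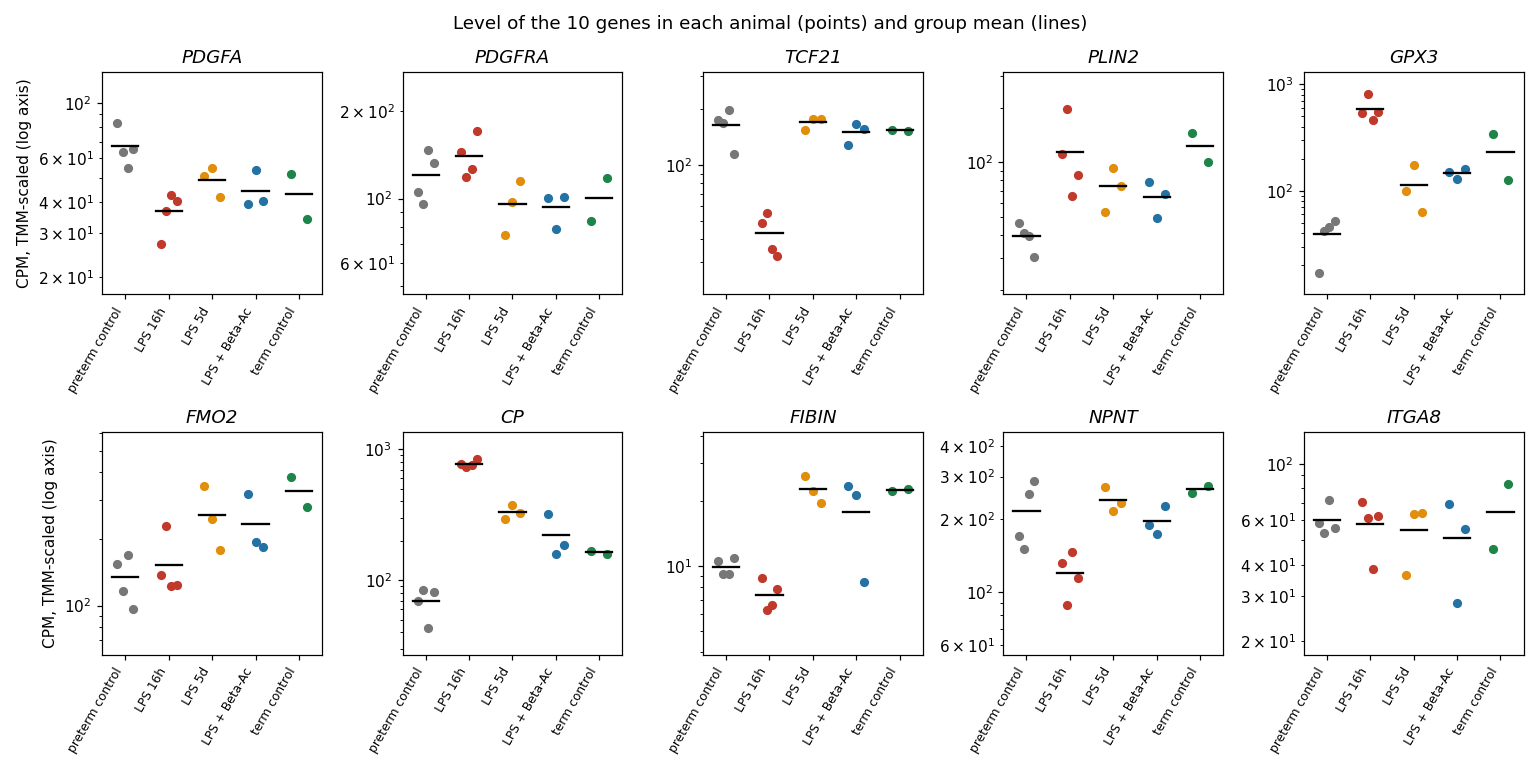
Level of each of the 10 genes (CPM after TMM scaling, log axis) in every animal, by group, with a line at the group mean. TCF21 in the 4 LPS 16h animals sits between 32.2 and 55.3 CPM, below the other animals, while CP in the same animals sits between 736 and 846 CPM, above the other animals.

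PDGFA (ENSMMUG00000004949) encodes the A chain of platelet-derived growth factor. It had 83.4, 63.8, 54.9 and 65.5 CPM in preterm controls and 27.2, 36.9, 42.7 and 40.3 CPM in LPS 16h animals. All 4 LPS 16h animals were below all preterm controls, with a log2 fold change of -0.87 (SE 0.179, adjusted p = 0.00141), or 1.82-fold lower, which passed the test but not the fold limit. Scaled by total counts, the change was -1.07 and passed both.

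The same gene had 50.9, 54.8 and 41.8 CPM in LPS 5d animals, 39.3, 53.8 and 40.3 CPM in LPS + Beta-Ac animals and 51.6 and 34.2 CPM in term controls. In each of these groups every animal lay below every preterm control, as for 15.6% (LPS 5d), 16.1% (LPS + Beta-Ac) and 15.2% (term) of all genes, although the highest LPS 5d animal (54.8 CPM) all but met the lowest preterm control (54.9 CPM). These comparisons share the 4 preterm controls, so that they are not separate evidence. Against preterm controls, the log2 fold change was -0.44 for LPS 5d (SE 0.194, 95% interval -0.85 to -0.02, adjusted p = 0.153) and -0.59 for LPS + Beta-Ac (SE 0.194, 95% interval -0.999 to -0.17, adjusted p = 0.0493). The second p was above 0.05 without preterm control 092, 101 or 209 or LPS + Beta-Ac animal 248 or 255 (0.0734 to 0.175), with limma-voom (0.0534), with median-of-ratios scaling (0.0573) and with no low-count filter (0.0568), and ranged from 0.0283 to 0.175 over all settings. In term controls the difference was -0.65 (SE 0.22). By mean level PDGFA ran from LPS 16h (lowest) through term, LPS + Beta-Ac and LPS 5d to preterm controls, and each neighboring pair overlapped except LPS 5d and preterm controls.

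PDGFRA (ENSMMUG00000017395), the receptor for PDGF-A on fibroblasts, did not pass the test against preterm controls in any group tested. It had 106, 95.7, 147 and 132 CPM in preterm controls and 145, 118, 127 and 170.1 CPM in LPS 16h animals. The groups overlapped, with a log2 fold change of 0.23 (SE 0.175, 95% interval -0.15 to 0.60, adjusted p = 0.331).

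At 5 days PDGFRA had 75.1, 97.4 and 115 CPM in LPS animals and 100.3, 78.6 and 101 CPM in LPS + Beta-Ac animals, and term controls had 84.0 and 118 CPM. All of these overlapped the preterm controls. The log2 fold changes were -0.33 for LPS 5d (95% interval -0.73 to 0.08, adjusted p = 0.287), -0.35 for LPS + Beta-Ac (95% interval -0.76 to 0.05, adjusted p = 0.233) and -0.25 at term (SE 0.215). Every neighboring pair of groups in the order of PDGFRA means overlapped. In whole lung, fewer cells of a type and less RNA per cell cannot be told apart, for this gene and for the others.

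Of the other PDGF genes, PDGFB, PDGFC and PDGFD (ligands) and PDGFRB (the receptor of pericytes and many fibroblasts), 0 of 4 were called in any comparison by limma or limma-voom, with at most 2 at an unadjusted p under 0.05. PDGFB reached an adjusted p of 0.00826 in LPS 16h animals with a log2 fold change of -0.76, under the fold limit. Against preterm controls all 4 had a negative log2 fold change in each of the 4 groups, with medians of -0.43 (LPS 16h), -0.40 (LPS 5d), -0.35 (LPS + Beta-Ac) and -0.35 (term), beside medians of -0.09, -0.0017, -0.01 and -0.01 over all genes. Pericyte markers summed below the preterm controls in all 4 groups, and endothelial markers in LPS 16h and term animals. The 5 pericyte markers summed to 732 to 868 CPM in preterm controls, 415 to 631 CPM in LPS 16h, 539 to 722 CPM in LPS 5d, 530.1 to 577 CPM in LPS + Beta-Ac and 474 to 659 CPM in term animals, with 1 of 5 called lower in LPS 16h and in LPS + Beta-Ac animals. The 8 endothelial markers summed to 2462 to 2980 CPM in preterm controls, 2009 to 2354 CPM in LPS 16h, 1701 to 2536 CPM in LPS 5d, 2035 to 2463 CPM in LPS + Beta-Ac and 1496 to 2142 CPM in term animals, with 1 of 8 called lower in LPS 16h and in term animals. Their part in the levels of the PDGF genes was not tested.

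TCF21 (ENSMMUG00000064455), a basic helix-loop-helix transcription factor of the lung mesenchyme that marks lipid-storing fibroblasts, fell after 16 hours of LPS. Preterm controls had 175, 168, 198 and 115 CPM and LPS 16h animals had 48.9, 55.3, 35.4 and 32.2 CPM. The highest LPS 16h animal was below the lowest preterm control, with a log2 fold change of -1.94 (SE 0.18, adjusted p = 7.58e-07), or 3.83-fold lower. Over every alternative setting, leaving out each animal in turn included, the change stayed between -2.14 and -1.81.

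At 5 days and at term, TCF21 was back among the preterm values. It had 155, 177 and 177 CPM in LPS 5d animals, 129, 166 and 155 CPM in LPS + Beta-Ac animals and 155 and 153 CPM in term controls. Neither 5-day group passed the test, with log2 fold changes of 0.07 for LPS 5d (95% interval -0.34 to 0.49, adjusted p = 0.857) and -0.11 for LPS + Beta-Ac (95% interval -0.52 to 0.31, adjusted p = 0.765). The LPS 16h group was the lowest by mean level and overlapped no other group, whereas the other 4 groups overlapped each neighbor in the order of means. TCF21 thus set the LPS 16h animals apart and did not separate term from preterm controls (-0.06, SE 0.221, with the sign turning without preterm control 113 or with total-count scaling).

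PLIN2 (ENSMMUG00000013997) encodes perilipin 2, a coat protein of lipid droplets in fibroblasts, alveolar type 2 cells and macrophages. It had 46.4, 40.9, 39.3 and 30.1 CPM in preterm controls and 111, 197, 65.5 and 85.0 CPM in LPS 16h animals. PLIN2 rose, with no overlap, by a log2 fold change of 1.44 (SE 0.288, adjusted p = 0.00122), or 2.71-fold, and LPS 16h animal 029 was the highest of all 16.

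LPS 5d animals had 53.4, 93.5 and 74.5 CPM of PLIN2, LPS + Beta-Ac animals 77.6, 49.7 and 67.4 CPM, and term controls 145 and 101 CPM. All were above the preterm controls. The log2 differences were 0.89 (SE 0.311), 0.72 (SE 0.311) and 1.64 (SE 0.352), and no test is given, since PLIN2, GPX3, FMO2, CP and FIBIN were chosen with their levels in these comparisons known. Preterm controls were the lowest group and did not overlap the next, and the other 4 groups overlapped each neighbor in the order of means.

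Beyond TCF21 and PLIN2, at most 2 of 20 measured genes of lipid-storing fibroblasts and lipid droplets reached both limits in any group against preterm controls. In LPS 16h animals DGAT2, which makes triglyceride, rose by a log2 fold change of 1.05 and MGLL, which breaks down monoacylglycerol, fell by 1.21, and 18 of 20 were not called. That is 1 called higher and 1 called lower, against 8.3% and 6.07% of all genes. With no fold limit, 8 of 20 had an adjusted p under 0.05, a limit at which the share of all genes was not counted. PPARG, the lipid-storage transcription factor, had a log2 fold change of 0.93 (adjusted p = 0.0151), under the fold limit. The list had 0 of 20 called with LPS 5d by limma or limma-voom (7 at an unadjusted p under 0.05) and 2 of 20 with LPS + Beta-Ac, where DGAT2 rose by 1.16 and FGF10, a fibroblast growth factor that acts on the epithelium, fell by 1.10. Of all genes 4.83% and 6.5% were called in those groups, and 3 and 4 of the 20 had an adjusted p under 0.05. At term 0 of 20 were called by either tool (4 at an unadjusted p under 0.05), where limma called 2.07% of all genes. PPARG had a log2 fold change of 1.19 there (adjusted p = 0.0623). Medians over the list lay between -0.15 and 0.16 in the 4 groups.

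GPX3 (ENSMMUG00000042643) encodes a secreted glutathione peroxidase that removes peroxides outside the cell. It had 17.0, 42.4, 45.6 and 51.6 CPM in preterm controls and 545, 821, 462 and 549.8 CPM in LPS 16h animals. GPX3 rose with no overlap, by a log2 fold change of 4.004 (SE 0.391, adjusted p = 2.61e-06), or 16.0-fold, the largest change among the 10 genes.

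The other groups lay between these levels. LPS 5d animals had 99.6, 175 and 62.8 CPM of GPX3, LPS + Beta-Ac animals had 152, 129 and 161 CPM, and term controls had 339 and 127 CPM. Each of these animals was above each preterm control and below each LPS 16h animal. The log2 differences from preterm controls were 1.51 (SE 0.422), 2.02 (SE 0.422) and 2.52 (SE 0.479), as descriptions. The last was 1.81 without term control 200 and 3.23 without term control 201.

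CP (ENSMMUG00000005529) encodes ceruloplasmin, a copper-carrying ferroxidase that is also an acute-phase protein. It had 69.1, 85.0, 43.3 and 81.4 CPM in preterm controls and 770.5, 736, 759.9 and 846 CPM in LPS 16h animals. CP rose by a log2 fold change of 3.52 (SE 0.214, adjusted p = 9.42e-09), or 11.5-fold, and the 4 LPS 16h animals were close to one another.

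LPS 5d animals had 293, 374 and 326 CPM of CP, LPS + Beta-Ac animals had 322, 159.5 and 188 CPM, and term controls had 166 and 160.0 CPM. All were above the preterm controls and below the LPS 16h animals. The log2 differences from preterm controls were 2.29 (SE 0.231), 1.66 (SE 0.231) and 1.27 (SE 0.262), as descriptions. By mean level CP was thus the reverse of GPX3 in these 3 groups, with LPS 5d above LPS + Beta-Ac and LPS + Beta-Ac above term, but LPS 5d overlapped LPS + Beta-Ac, which in turn overlapped term.

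FMO2 (ENSMMUG00000019727), the main flavin-containing monooxygenase of the lung, did not pass the test at 16 hours. It had 154, 117, 169.9 and 96.0 CPM in preterm controls and 137, 229, 123 and 124 CPM in LPS 16h animals. The groups overlapped (log2 fold change 0.18, 95% interval -0.39 to 0.74, adjusted p = 0.639), and the sign turned when libraries were scaled by total counts or without LPS 16h animal 029.

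FMO2 was higher in the later groups. It had 346, 246 and 178 CPM in LPS 5d animals, 320.0, 193 and 184 CPM in LPS + Beta-Ac animals and 379 and 279.6 CPM in term controls, against a highest preterm control of 169.9 CPM. The log2 differences from preterm controls were 0.92 (SE 0.286), 0.78 (SE 0.286) and 1.31 (SE 0.325), as descriptions. The lowest LPS 5d animal (178 CPM) and the lowest LPS + Beta-Ac animals (184 and 193 CPM) lay just above that control.

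FIBIN (ENSMMUG00000013358) encodes a small secreted protein first described in the fin bud of fish. It had 10.5, 9.15, 9.22 and 10.9 CPM in preterm controls and 8.81, 6.24, 6.62 and 7.85 CPM in LPS 16h animals. The LPS 16h animals were all below the preterm controls, but the log2 fold change of -0.44 did not pass the test (95% interval -0.97 to 0.09, adjusted p = 0.184).

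By contrast, FIBIN had 25.9, 22.3 and 19.6 CPM in LPS 5d animals, 23.3, 21.4 and 8.40 CPM in LPS + Beta-Ac animals and 22.3 and 22.8 CPM in term controls. LPS 5d and term animals were above all preterm controls, with log2 differences of 1.17 (SE 0.268) and 1.18 (SE 0.304), as descriptions. In the LPS + Beta-Ac group, 2 animals reached these levels and animal 255 was below the preterm controls, giving 0.70 (SE 0.268) for the group.

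Relatives of the enzymes did not move with them as a set. Of 9 tested paralogs of GPX3, FMO2 and CP, 2 were called higher in LPS 16h animals and 0 lower, against 8.3% and 6.07% of all genes. Only 2 of the 9 had a positive log2 fold change, and the median was -0.43 against -0.09 over all genes. With no fold limit, 6 of 9 had an adjusted p under 0.05, and the share of all genes at that limit was not counted. GPX1, the cytosolic glutathione peroxidase, rose by a log2 fold change of 1.35 (SE 0.235, adjusted p = 0.000365) and GPX2, the gastrointestinal form, by 1.24 at a level of 0.988 CPM. By limma and limma-voom 0 of 9 were called with LPS 5d, LPS + Beta-Ac or at term (4, 5 and 3 at an unadjusted p under 0.05). Limma called 4.83%, 6.5% and 2.07% of all genes there.

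NPNT (ENSMMUG00000023428) encodes nephronectin, a basement membrane protein that binds integrin alpha 8 beta 1. It had 169.9, 150.3, 255 and 287 CPM in preterm controls and 132, 87.8, 147 and 114 CPM in LPS 16h animals. All LPS 16h animals were below all preterm controls, by a log2 fold change of -0.82 (SE 0.198, adjusted p = 0.00437), or 1.76-fold lower, which passed the test but not the fold limit. With total-count scaling the change was -1.02 and passed both.

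NPNT had 273, 215 and 232 CPM in LPS 5d animals, 188, 174 and 226 CPM in LPS + Beta-Ac animals and 257 and 274 CPM in term controls. Preterm controls spanned all of this range, and all 3 groups overlapped them. The log2 fold changes were 0.20 for LPS 5d (95% interval -0.25 to 0.66, adjusted p = 0.596), -0.09 for LPS + Beta-Ac (95% interval -0.55 to 0.36, adjusted p = 0.823) and 0.35 at term (SE 0.242).

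ITGA8 (ENSMMUG00000011661), the integrin alpha 8 subunit, was the member whose groups differed least. It had 58.3, 53.4, 71.7 and 55.8 CPM in preterm controls and 70.7, 61.1, 38.4 and 61.9 CPM in LPS 16h animals. LPS 5d animals had 36.5, 63.4 and 64.2 CPM, LPS + Beta-Ac animals 69.2, 28.3 and 55.2 CPM and term controls 46.0 and 83.2 CPM. All groups overlapped, and group means ran only from 50.9 to 64.6 CPM. The log2 fold changes against preterm controls were -0.07 for LPS 16h (95% interval -0.68 to 0.54, adjusted p = 0.873), -0.16 for LPS 5d (95% interval -0.83 to 0.50, adjusted p = 0.789), -0.32 for LPS + Beta-Ac (95% interval -0.98 to 0.34, adjusted p = 0.542) and 0.06 at term (SE 0.351), where the value was -0.37 without term control 201. None of the 3 intervals leaves out a level 1.5-fold lower.

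Among 9 partners of NPNT and ITGA8 (the integrin subunit ITGB1, other ligands and basement membrane proteins), 0 were called in LPS 16h animals by limma or limma-voom, with 5 at an unadjusted p under 0.05 and 3 at an adjusted p under 0.05 but under the fold limit. FREM2, a protein of the basement membrane complex missing in Fraser syndrome, rose with LPS 5d by a log2 fold change of 1.58 (SE 0.228, adjusted p = 0.000565) and with LPS + Beta-Ac by 1.55 (SE 0.228, adjusted p = 0.000366). It was the only partner called in either group, but the summed level of the list was lower in both. At an unadjusted p under 0.05 there were 7 of 9 with LPS 5d and 8 of 9 with LPS + Beta-Ac. The share of all genes at that limit was not counted. The median log2 fold change was -0.60 in each, against -0.0017 and -0.01 over all genes. For ITGB1 the log2 fold change was -0.83 with LPS 5d (adjusted p = 0.000585) and -0.85 with LPS + Beta-Ac (adjusted p = 0.000276), under the fold limit. For FN1, fibronectin, it was -0.99 with LPS 5d (adjusted p = 0.00100) and -0.98 with LPS + Beta-Ac (adjusted p = 0.000705), also under that limit. The 9 genes summed to 3574 to 4791 CPM in preterm controls, 2051 to 2392 CPM in LPS 5d and 2076 to 2502 CPM in LPS + Beta-Ac animals, with no overlap. At term 0 of 9 were called by limma or limma-voom (4 at an unadjusted p under 0.05).

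Counted over the genes that could be tested, LPS 5d had 0 of 5 called (PDGFA, PDGFRA, TCF21, NPNT and ITGA8) by limma, against 4.83% of all genes, and LPS + Beta-Ac had 0 of 5, against 6.5%. In each comparison 1 of the 5, PDGFA, had an unadjusted p under 0.05, and limma-voom also called 0. PLIN2, GPX3, FMO2 and CP were above the preterm controls in both groups and FIBIN in the LPS 5d group, where over all genes 13.6% (LPS 5d) and 14.7% (LPS + Beta-Ac) lay above with no overlap. These 5 genes were chosen with the same comparisons known, so nothing follows from their count.

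**Figure D2:**
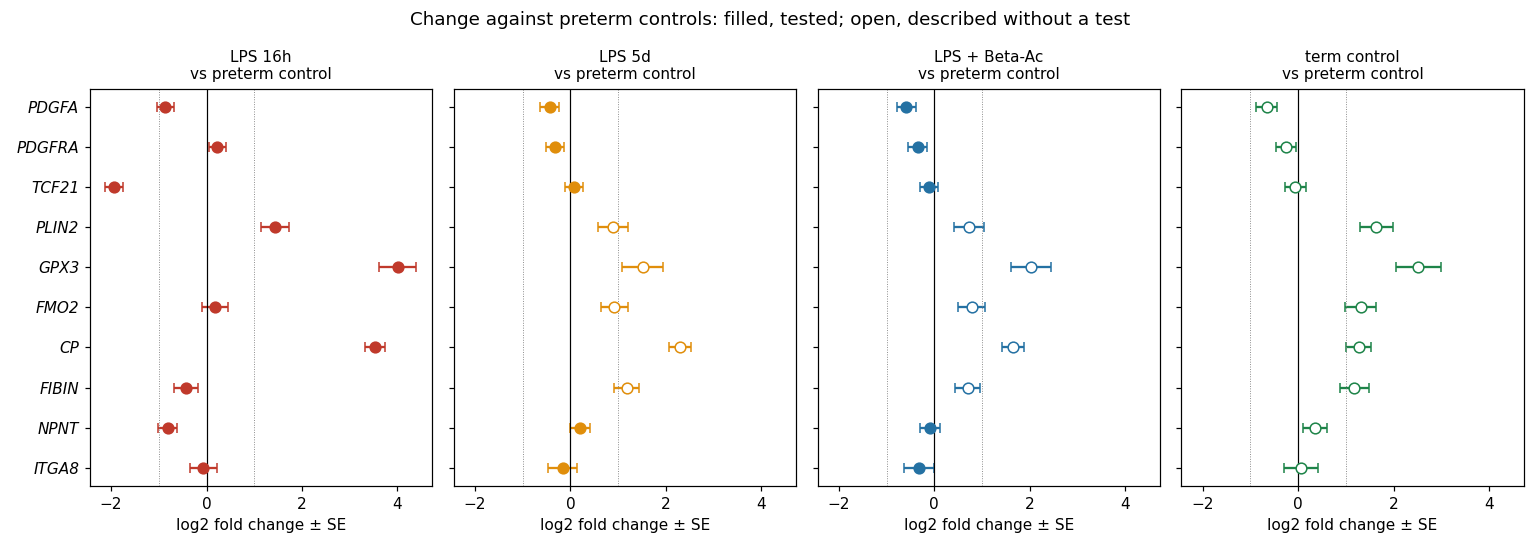
Log2 fold change against preterm controls (x axis, bars are 1 SE, dotted lines at the 2-fold limit) for the 10 genes in each group. Filled points were tested and open points are descriptions. GPX3 (4.004) and CP (3.52) lie farthest right in LPS 16h animals and TCF21 (-1.94) farthest left.

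Whether Beta-Ac added to LPS changed these genes was asked by comparing LPS + Beta-Ac with LPS 5d animals. PLIN2, GPX3, FMO2, CP and FIBIN were chosen with the levels of both groups against preterm controls known. Their part in the counts below, their p-values and their intervals are therefore not independent evidence. Of the 10 genes, 0 were called by limma, against 0.104% of all genes, all 10 overlapped between the groups where 11.4% of all genes did not, 1 had an unadjusted p under 0.05, and limma-voom called 0. That gene was CP, with 322, 159.5 and 188 CPM in LPS + Beta-Ac against 293, 374 and 326 CPM in LPS 5d animals. Its log2 fold change was -0.63 (SE 0.247, 95% interval -1.16 to -0.10, adjusted p = 0.815), and LPS + Beta-Ac animal 248 lay among the LPS 5d animals. FIBIN differed by -0.48 (95% interval -1.09 to 0.13), by -0.01 without animal 255, and GPX3 by 0.51 (95% interval -0.46 to 1.48). The intervals for PDGFA (-0.59 to 0.29), PDGFRA (-0.46 to 0.41), TCF21 (-0.63 to 0.26), PLIN2 (-0.88 to 0.54), FMO2 (-0.79 to 0.52), NPNT (-0.78 to 0.19) and ITGA8 (-0.86 to 0.55) all leave out a 2-fold difference, and only that for PDGFRA also leaves out one of 1.5-fold.

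How the genes stood at 16 hours relative to 5 days of LPS was compared directly. GPX3 and CP were called higher at 16 hours and TCF21, FIBIN and NPNT lower, which is 2 and 3 of 10, against 8.02% and 6.61% of all genes. The comparison shares the LPS 5d animals and the LPS 16h animals with comparisons that were known when the genes were chosen. GPX3, CP and FIBIN were chosen with their LPS 5d levels known, so neither their calls nor their p-values here are independent evidence. The log2 fold changes were 2.49 for GPX3 (SE 0.422, adjusted p = 0.000419), 1.24 for CP (SE 0.231, adjusted p = 0.000703), -2.01 for TCF21 (SE 0.195, adjusted p = 1.76e-06), -1.61 for FIBIN (SE 0.268, adjusted p = 0.000272) and -1.02 for NPNT (SE 0.214, adjusted p = 0.00171). In each of these 5 the groups did not overlap, as for 40% of all genes. FIBIN was thus 3.05-fold lower and TCF21 4.03-fold lower at 16 hours than at 5 days.

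The NPNT change in that comparison lay near the fold limit. It was -0.88 without LPS 16h animal 029 and -0.92 without LPS 5d animal 239, both under the limit. PDGFRA was above all LPS 5d animals at 16 hours, by 0.55 (SE 0.189, adjusted p = 0.0332), under the fold limit. Its adjusted p ranged from 0.0208 to 0.174 over all settings, was 0.169 with total-count scaling and lay above 0.05 without LPS 16h animal 026 or 038 or LPS 5d animal 239 or 240. PDGFA (-0.43, adjusted p = 0.0993), FMO2 (-0.74, adjusted p = 0.0572), PLIN2 (0.54, adjusted p = 0.196) and ITGA8 (0.10, adjusted p = 0.843) overlapped between the groups.

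Other fibroblast genes, from lists written with earlier results of these animals known, were counted in the same comparisons. Of 13 measured alveolar fibroblast genes, FGF7, a growth factor for epithelium, rose in LPS 16h animals (log2 fold change 1.41), while FOXF1, a mesenchymal transcription factor (-1.05), MFAP4, a microfibril protein (-1.04), and INMT, a methyltransferase (-1.03), fell. That is 1 called higher and 3 called lower, against 8.3% and 6.07% of all genes. The median was -0.72 against -0.09 over all genes. BMP5 fell with LPS 5d (-1.10), INMT fell with LPS + Beta-Ac (-1.20), and CES1, a carboxylesterase, rose at term (2.47). Each was the only call of 13, where 4.83%, 6.5% and 2.07% of all genes were called. In each of these groups only 3 of the 13 had a positive log2 fold change. The medians were -0.43, -0.36 and -0.27, against -0.0017, -0.01 and -0.01 over all genes, with 10, 10 and 7 genes at an unadjusted p under 0.05.

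Of 12 alveolar myofibroblast genes, 5 fell and 0 rose in LPS 16h animals, against 6.07% called lower and 8.3% called higher over all genes, among them ELN, the elastin gene (-1.33, SE 0.117), and ASPN, a matrix proteoglycan (-2.51, SE 0.485). LGR6 fell in LPS 16h (-1.54), LPS 5d (-1.26) and LPS + Beta-Ac animals (-1.02). At term ACTA2 (-1.21), ELN (-1.11) and FGF18 (-1.01) fell, which is 3 of 12 against 2.07% of all genes called in either direction. The median of this list was between -0.86 and -0.65 in the 4 groups. At 16 hours relative to 5 days of LPS, 1 of these 12 genes was called higher and 2 lower. The alveolar fibroblast list had 1 and 3 of 13, the lipid list 2 and 1 of 20, and the partners of NPNT and ITGA8 1 and 2 of 9. Of all genes 8.02% were called higher and 6.61% lower. Pooled over these lists, FGF7 (2.21), TNC (2.15), LPL (1.43), TAGLN (1.26) and FGF10 (1.03) were called higher. Among those called lower were FREM2 (-2.34), ASPN (-1.89), CES1 (-1.81), FRAS1 (-1.57) and MFAP4 (-1.003).

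**Figure D3:**
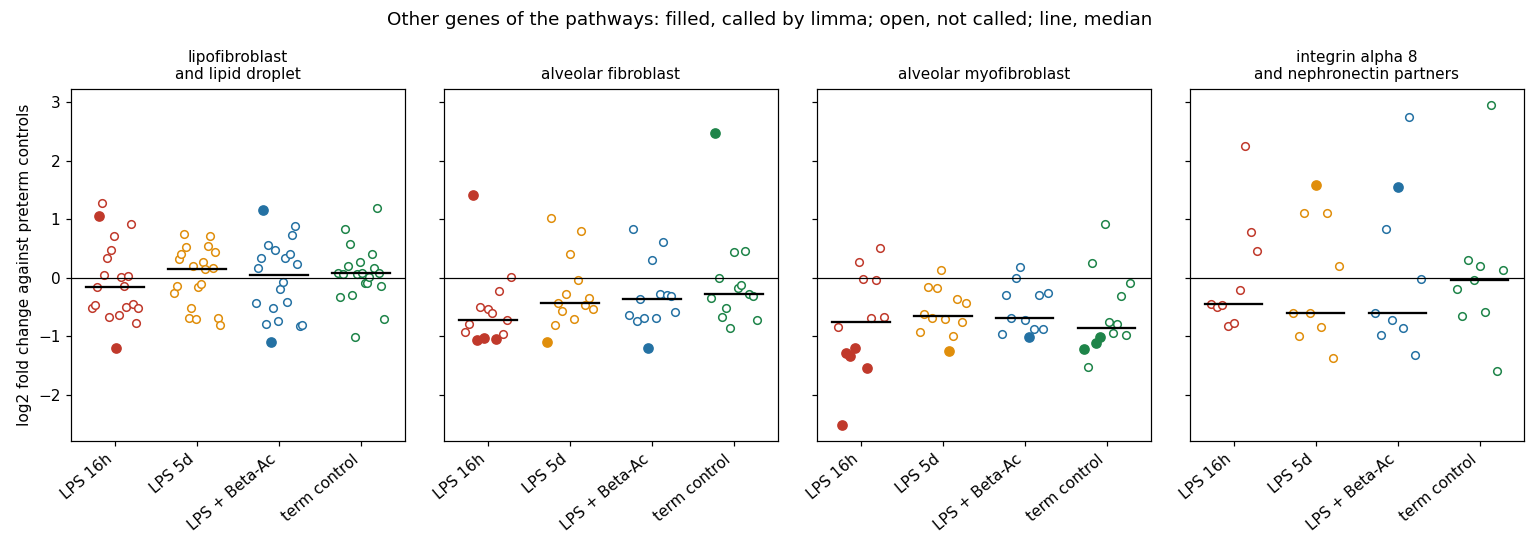
Log2 fold change against preterm controls (y axis) of each gene in 4 lists of related genes, by group, with a line at the list's median. Filled points were called by limma and open points were not. In the alveolar myofibroblast list 5 genes were called lower in LPS 16h animals and 3 at term, and none was called higher.

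Markers of the cells in whole lung moved with the groups, and the counts called in LPS 16h animals stand beside 8.3% of all genes called higher and 6.07% called lower. Summed over 8 mesenchyme markers, preterm controls had 13832 to 22223 CPM, against 9861 to 13876 CPM in LPS 16h, 8857 to 15301 CPM in LPS 5d, 9254 to 11962 CPM in LPS + Beta-Ac and 8484 to 9190 CPM in term animals. The 8 alveolar type 1 markers summed to 4060 to 4642 CPM in preterm controls and 1491 to 1762 CPM in LPS 16h animals, in which 6 of 8 were called lower, beside the lower TCF21, NPNT and PDGFA. The 8 alveolar type 2 markers summed to 6166 to 9834 CPM in preterm controls and 9035 to 17114 CPM in LPS 16h animals, in which 5 of 8 were called higher, and to 13141 CPM or more in every LPS 5d, LPS + Beta-Ac and term animal.

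The 7 proliferation markers summed to 109 to 163 CPM in preterm controls and 85.7 to 139 CPM in LPS 16h animals, but to 45.4 to 52.8 CPM in LPS 5d, 62.4 to 70.4 CPM in LPS + Beta-Ac and 39.0 to 48.2 CPM in term animals, the groups in which FMO2 was higher. Of these markers 7, 4 and 6 were called lower in those 3 groups, against 4.83%, 6.5% and 2.07% of all genes called in either direction.

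Leukocyte markers, like GPX3, CP and PLIN2, were higher in every other group than in preterm controls, but the groups did not rank alike. Neutrophil markers, GPX3 and CP were highest in LPS 16h animals, macrophage markers in LPS + Beta-Ac animals and PLIN2, by mean level, in term controls. The 6 neutrophil markers summed to 15.9 to 48.1 CPM in preterm controls, 1346 to 2112 CPM in LPS 16h animals (5 of 6 called higher), 64.2 to 113 CPM in LPS 5d, 152 to 320 CPM in LPS + Beta-Ac and 96.1 to 129 CPM in term animals. The 9 macrophage markers summed to 84.7 to 141 CPM in preterm controls, where MARCO was at 0, and to 242 to 403 CPM in LPS 16h animals (7 of 9 called higher), 185 to 266 CPM in LPS 5d, 387 to 711 CPM in LPS + Beta-Ac and 146 to 301 CPM in term animals. The part of these cell types in the levels of the 10 genes was not tested.

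**Figure D4:**
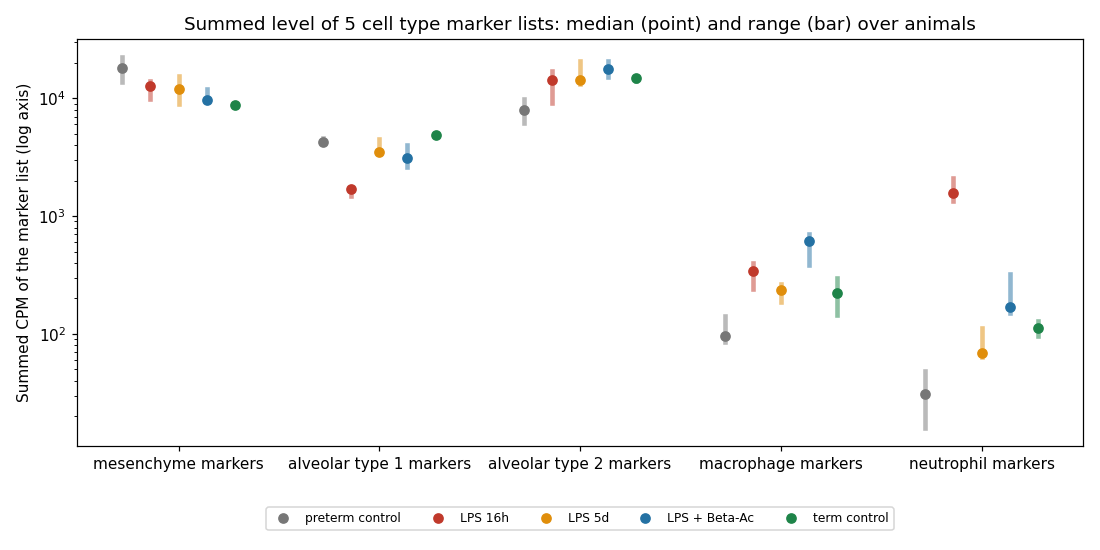
Summed level (CPM after TMM scaling, log axis) of 5 cell type marker lists by group, with the median as a point and the range over animals as a bar. Neutrophil markers in the LPS 16h animals (1346 to 2112 CPM) lie above the other groups, and alveolar type 1 markers in those animals (1491 to 1762 CPM) lie below them.

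Set against the mesenchyme markers, a ratio chosen after the values were seen, some orders changed. Per 1000 CPM of the 8 markers, TCF21 was 2.68 to 4.18 CPM in LPS 16h animals, still below the 5.90 to 12.2 CPM of preterm controls, but 16.8 to 18.04 CPM in term controls, above them. PDGFRA was 8.96 to 14.1 CPM per 1000 in LPS 16h animals and 6.28 to 6.92 in preterm controls, which no longer overlapped. PDGFA, which had been below the preterm controls, overlapped them in all 4 groups, at 2.47 to 4.96 in preterm controls and 1.96 to 4.33 in LPS 16h animals. NPNT was 10.1 to 14.7 in preterm controls, overlapped by the 6.65 to 14.9 of LPS 16h animals, while LPS + Beta-Ac (15.7 to 23.4) and term animals (28.01 to 32.3) lay above. PDGFRA also lay above the preterm controls in LPS + Beta-Ac (8.38 to 10.5) and term animals (9.14 to 13.9). ITGA8 was 2.87 to 3.86 in preterm controls and lay above them in LPS 16h (3.89 to 5.15) and term animals (5.0004 to 9.81). FMO2 lay above them in LPS 16h animals as well (9.88 to 17.3 against 4.94 to 9.17). FIBIN overlapped them in LPS 16h animals (0.473 to 0.671 against 0.415 to 0.662) and lay above them in LPS + Beta-Ac animals (0.868 to 2.31). The 4 collagen genes on the list made up 71.7% to 86.2% of its sum, so the ratio is largely one to collagen. The median sum was 18132 CPM in preterm controls, 12622 in LPS 16h, 11955 in LPS 5d, 9671 in LPS + Beta-Ac and 8837 in term animals. A gene with unchanged CPM therefore rises in this ratio, and lying above the preterm controls by it is not a result about the gene. The share of all genes above them by this ratio was not counted.

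The genes whose log2 level ran most like each of the 10 over the 16 animals were also ranked, by Pearson r, with no test, since the animals share groups. CP ran with CXCL16, a chemokine (r = 0.969), LCN2, the neutrophil-gelatinase lipocalin (0.954), and CFB, complement factor B (0.953), and GPX3 with SLC43A3 (0.950), CD14 (0.938) and PIGR (0.933). Within groups, after subtraction of each group's mean, those for CP dropped to 0.329 to 0.455 and those for GPX3 to 0.472 to 0.583. TCF21 ran with TRIM45 (0.979), XNDC1 (0.978) and SIRT5 (0.977), which were 0.672 to 0.790 within groups.

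The closest genes for the remaining members were DLGAP4 (0.904), PHLDB1 (0.882) and C1H1orf198 (0.871) for PDGFA, THAP12 (0.936), KCTD20 (0.924) and TPP2 (0.919) for PDGFRA, and COX6B2 (0.898), POLR2D (0.843) and ALDOC (0.841) for PLIN2. For NPNT they were CTDSPL (0.935), RCAN3 (0.925) and GPR63 (0.923), and for ITGA8 they were ABCD3 (0.783), PHEX (0.769) and NCOA1 (0.765), the weakest of the 10. FMO2 ran with FAM47E (0.864), C19orf85 (0.833) and SEC14L2 (0.816), and FIBIN with C19orf85 (0.909), SLC26A5 (0.896) and CUX1 (0.895), so that 1 gene was shared by both. Within groups these dropped to 0.518 to 0.755 for FMO2 and 0.270 to 0.643 for FIBIN. They were 0.763 to 0.863 for ITGA8, and 0.745 to 0.917 over PDGFA, PDGFRA, PLIN2 and NPNT. None of the 10 genes was among the 3 closest of another.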

How the data were processed

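Poly(A) RNA from frozen lung was sequenced by the authors as 75 bp paired-end reads, assigned to the rhesus build Mmul_10 with kallisto and summed per gene with tximport, after which they used DESeq2. Neither tool versions nor the annotation release is given in the sources used here. The deposited table holds whole-number counts, 1 column per animal and 1 row per Ensembl gene, recorded here as other because its columns are named by bare numbers, so count models were not used. Symbols came from a gene name table (17256 of 22515 identifiers). No sequences or positions are printed, since no genome of this build was used.

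Genes with at least 0.371 CPM (10 counts in the median library) in 2 animals and 15 counts in total were tested (19199). Log2 CPM (TMM, prior count 2) was fitted with limma 3.58.1 in R 4.3.3 (trend, robust, two-sided), with 1 mean per group over all 16 animals and Benjamini-Hochberg adjustment over all genes tested. Calls needed an adjusted p under 0.05 and at least a 2-fold change, the study's own limits. The share of all genes with an adjusted or unadjusted p under 0.05 and no fold limit was not counted. The steps were tested on simulated data. Alternatives were limma-voom, total-count and median-of-ratios scaling, no filter, a prior count of 0.5, the 2 groups alone, no fold limit and leaving out each animal. The text names all 10 members, list genes that were called (at most 5 per list and comparison, with PDGFB, PPARG, ITGB1 and FN1 added after their values were seen) and the 3 genes of highest r for each member. The members and lists were chosen with earlier results of these data known. Replicates are separate animals and differed by more than counting noise.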

Additional observations from a re-analysis of the deposited data

Results flagged for a closer look

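The change after LPS differed between 16 hours and 5 days, by limma's comparison of these groups (adjusted p under 0.05), for 6 of the 10 genes. As the log2 fold change at 16 hours minus that at 5 days, the difference was 2.49 for GPX3, 1.24 for CP, 0.55 for PDGFRA, -1.02 for NPNT, -1.61 for FIBIN and -2.01 for TCF21. The preterm controls are common to both and drop out of the difference. With the fold limit as well, 8.02% of all genes were called higher and 6.61% lower in that comparison, and the share at this p alone was not counted. GPX3, CP and FIBIN were chosen with their LPS 5d levels known, so their part in the count is not independent evidence. For PDGFRA the adjusted p ranged from 0.0208 to 0.174 over the other settings. By a rule on the gap to the nearest animal as a share of the range, no animal was flagged in the 20 groups of 4 animals examined (10 genes in preterm control and LPS 16h animals). FMO2 in LPS 16h animal 029 (229 CPM, next highest 137) and GPX3 in preterm control 092 (17.0 CPM, next lowest 42.4) were not flagged. Smaller groups, such as that of LPS + Beta-Ac animal 255 with its low FIBIN, were not examined.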

How the results depend on the processing

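Of 520 tested values recomputed under the alternatives, 496 kept their direction and their side of the limits, 2 gained a call, 2 lost one and 20 changed sign, and all 220 untested values moved by less than the spread between animals. Among the untested values, TCF21 at term (-0.06) turned to 0.0058 with total-count scaling and 0.037 without preterm control 113, ITGA8 at term (0.06) to -0.37 without term control 201, and GPX3 at term (2.52) was 1.81 without term control 200 and 3.23 without 201. No called gene changed sign. The gained calls were PDGFA (-1.07) and NPNT (-1.02) in LPS 16h against preterm controls with total-count scaling, which raised the count called there from 4 to 6, as did dropping the fold limit. With no fold limit, LPS + Beta-Ac against preterm controls had 1 gene called, PDGFA (adjusted p = 0.0493, but 0.0534 to 0.0573 with limma-voom, median-of-ratios scaling or no filter), and LPS 16h against LPS 5d had 6. The lost calls were NPNT in LPS 16h against LPS 5d without LPS 16h animal 029 (-0.88) or LPS 5d animal 239 (-0.92), where 4 to 5 genes were called with animals left out.

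Among tested values, signs turned only for those not called. With total-count scaling, FMO2 in LPS 16h against preterm controls was -0.0304 and ITGA8 in LPS 16h against LPS 5d was -0.10. With animals left out, values ranged from -0.00732 to 0.301 for FMO2 and -0.18 to 0.12 for ITGA8 in LPS 16h, from -0.0883 to 0.174 for TCF21 and -0.30 to 0.10 for ITGA8 in LPS 5d, and from -0.248 to 0.0623 for NPNT and -0.587 to 0.0823 for ITGA8 in LPS + Beta-Ac, each against preterm controls. Against LPS 5d, LPS + Beta-Ac values ranged from -0.19 to 0.12 for PDGFRA, -0.386 to 0.0167 for PLIN2, -0.39 to 0.11 for FMO2 and -0.42 to 0.22 for ITGA8, and LPS 16h values from -0.17 to 0.28 for ITGA8. The cause was not tested. No paired analysis was possible because the groups share no animal number. Groups of 2 to 4 animals limit the precision, term controls most, and LPS 16h libraries were deeper than the rest.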
